A study of Mus musculus with 8 samples.

Results

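Replication-dependent histone genes are the protein-coding genes that carry the names Hist1h, Hist2h, Hist3h or Hist4h in mouse annotation GENCODE M21. They were chosen by matching every Ensembl gene identifier of the count table to that annotation, without use of any measured value. The rule found 67 genes among the 21859 identifiers of the table: 6 of class H1, 18 of H2A, 18 of H2B, 12 of H3 and 13 of H4. The cells were PER-M60, a line of leukaemia cells from mouse, and RNA was sequenced from 4 cultures in control medium and 4 in medium conditioned by osteoclasts, the cells that resorb bone. No treatment other than the medium, no genotype and no time in culture is given in the labels, and all 8 cultures share the 1 cell line. The labels call the samples of a medium replicates and separate cultures but do not say whether they were grown on separate days. The p-values therefore measure the spread between these cultures, which may be technical.

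Histones package DNA into nucleosomes. A pair each of H2A, H2B, H3 and H4 forms the core around which DNA is wrapped, and linker histone H1 binds where the DNA enters and leaves. The replication-dependent genes supply histones during S phase, when DNA is copied. Their messenger RNAs are known to end in a stem-loop in place of a poly(A) tail: stem-loop binding protein, the product of Slbp, holds it, and the U7 small nuclear ribonucleoprotein with a cleavage complex cuts the transcript just after it. Some of these genes are also known to give polyadenylated transcripts, in differentiated cells among others. A second set of histone genes is called the replication-independent variants. Members such as H2afz and H3f3a are known to be transcribed throughout the cell cycle and to give ordinary polyadenylated messenger RNA. That description was not checked for the other members of the list used below, Cenpa and H2afx among them. Whether these libraries were selected for poly(A) tails or by capture is not given in the sources used here, so the counts below are of the histone transcripts that such libraries hold.

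The stem-loop is the feature that sets these transcripts apart, so its sequence was read from the GENCODE M21 transcripts. It is shown for 8 of the genes described below whose models hold it. It is 16 bases long, with a 6-base stem on each side of a 4-base loop. The lines give it as DNA, 5′ to 3′ on the transcript's strand, with 5 bases of flank on each side. Capitals mark the stem-loop, and positions are those of the capitals on build GRCm38.
Hist1h1c (linker histone H1), chr13:23739512-23739527, plus strand: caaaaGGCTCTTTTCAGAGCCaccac
Hist1h2ae (H2A), chr13:23570668-23570683, minus strand: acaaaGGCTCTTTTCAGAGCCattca
Hist2h2ac (H2A), chr3:96220418-96220433, minus strand: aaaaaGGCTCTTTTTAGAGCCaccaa
Hist1h2be (H2B), chr13:23585531-23585546, minus strand: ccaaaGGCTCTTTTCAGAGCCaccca
Hist1h3c (H3), chr13:23745047-23745062, minus strand: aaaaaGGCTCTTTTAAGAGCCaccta
Hist1h4i (H4), chr13:22040966-22040981, minus strand: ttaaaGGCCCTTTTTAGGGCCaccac
Hist1h4d (H4), chr13:23581950-23581965, plus strand: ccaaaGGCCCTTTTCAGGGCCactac
Hist1h4b (H4), chr13:23757366-23757381, plus strand: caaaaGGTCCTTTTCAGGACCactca

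A stem-loop of this form was found in the annotated transcripts of 46 of the 67 genes, 21 to 58 bases after the stop codon (median 31). All 34 stem-loops of classes H1, H2A, H2B and H3 began with GGCTC, and 0 of the 12 in class H4 did. The most frequent form, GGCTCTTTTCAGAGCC, stood in 26 genes, among them Hist1h1c, Hist1h2ae and Hist1h2be. The H4 form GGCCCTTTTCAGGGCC stood in 7 genes. Of the 21 genes without a match, 15 have transcript models that stop within 5 bases of the stop codon; sequence beyond the models was not searched. The models of Hist1h2bc and Hist2h2be, the H2B genes described below, hold no match.

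The genes lie in 4 clusters on GRCm38. The Hist1 cluster holds 54 of them on chromosome 13 between 21715763 and 23934851, and the Hist2 cluster holds 10 on chromosome 3 between 96219865 and 96270132. The Hist3 cluster holds 2 on chromosome 11, and Hist4h4 stands alone on chromosome 6. H2A and H2B genes are often arranged head to head: 12 such pairs have starts 176 to 306 bases apart (median 259.5), and 1 further pair joins an H2B and an H3 gene 660 bases apart.

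RefSeq promoter windows of GRCm38.p6, from 250 bases before to 50 after the start, were matched to 62 of the 67 genes (63 windows). Both strands were searched for each motif, and no match overlapped a match of another motif. The TATA box, searched as TATAAA, stood in 55.6% of the histone windows and in 13.6% of all 32851 RefSeq windows. The CCAAT box stood in 85.7% of the histone windows and 37.4% of all. It was in all windows of H1 (6), H2A (18), H2B (17) and H3 (10), but in 3 of 12 windows of H4. The octamer ATTTGCAT, bound by the Pou2f1 protein among others, stood in 22.2% of the histone windows and 1.74% of all: in 7 of 18 H2A and 7 of 17 H2B windows, and in 0 of the H1, H3 and H4 windows. Windows of head-to-head genes can cover the same DNA, and since both strands were searched, the same site can count in both. The octamer of Hist1h2aa is also that of Hist1h2ba, for example, and the TATA match of Hist1h2bf is that of Hist1h2ad. The windows are therefore not independent. These matches describe letters and not binding. The 2 stretches below show this difference between classes: the 250 bases before the RefSeq start of Hist1h2ac, and those before the H4 gene with the highest level per length. The first covers most of the space to the head-to-head partner Hist1h2bc, whose GENCODE start is 251 bases from that of Hist1h2ac, and runs a few bases past that start. Its TATAAA lies near the end of the stretch, close to the start of Hist1h2ac. The TATAAA of Hist1h4i lies near the middle of its stretch, far from the start of that gene. Each is read 5′ to 3′ on the strand of the gene named, and capitals mark the motifs on either strand (ATTGG and ATGCAAAT are the CCAAT box and the octamer read from the other strand).
Hist1h2ac, chr13:23683960-23684209, minus strand: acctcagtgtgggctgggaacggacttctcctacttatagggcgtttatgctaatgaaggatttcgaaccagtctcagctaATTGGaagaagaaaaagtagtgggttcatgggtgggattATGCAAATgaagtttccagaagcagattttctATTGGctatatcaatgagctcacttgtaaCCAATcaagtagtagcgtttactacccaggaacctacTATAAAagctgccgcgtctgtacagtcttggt
Hist1h4i, chr13:22041363-22041612, minus strand: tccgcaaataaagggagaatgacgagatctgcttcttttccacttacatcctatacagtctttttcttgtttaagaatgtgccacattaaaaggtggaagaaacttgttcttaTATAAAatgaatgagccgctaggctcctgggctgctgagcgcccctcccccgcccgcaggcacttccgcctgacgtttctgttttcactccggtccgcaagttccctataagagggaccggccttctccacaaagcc

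Histone transcripts were scarce in all 8 libraries. Total counts per library ran from 15391754 to 21637966, and the 67 genes together held 889 to 1168 of them. That is 52.7 counts per 1000000 (CPM) in the library with the lowest share, the second of conditioned medium, and 64.4 in the highest, the fourth of control medium. Their 95% Wilson intervals were 49.3 to 56.3 and 60.7 to 68.2 CPM, covering counting error only. At least 1 count was found for 61 of the 67 genes, and 49 had at least 1 count in every library. The 6 genes with 0 counts in all 8 libraries were Hist1h2aa, Hist1h2ap, Hist1h2ba, Hist1h2bq, Hist1h2br and Hist3h2a. By counting error, a 0 in 1 library allows up to 3 counts, which is 0.138 to 0.194 CPM. That bound does not cover reads lost between near-identical copies, such as Hist1h2ap, Hist1h2bq and Hist1h2br, or to an overlapping gene. Hist3h2a shares 33.0% of its exon bases with Trim17, on either strand. Genes that dividing cells use, Cdt1, Gins2, Tk1 and Asf1a, were also listed at 0 in all 8 libraries, so a 0 in this table may also be a gene that was not measured; that was not tested. Hist1h2aa and Hist1h2ba are known as testis genes, and the testis linker histone Hist1h1t had 1 count in the 8 libraries together.

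Few genes held most of the histone counts. Hist1h2be, Hist2h2be and Hist1h4i together held 44.6%, and adding Hist1h1c, Hist1h3c, Hist1h4d and Hist1h2bc brought the share to 60.8%. By class, H2B genes held 41.1% of histone counts, H4 25.1%, H3 15.1%, H2A 9.77% and H1 8.85%. Within H4, Hist1h4i alone held 52.8% of the class, and within H1, Hist1h1c held 57.2%. Hist1h2be held 43.2% of H2B and Hist1h3c 31.0% of H3, while Hist1h2ak, the leading H2A gene, held 19.2% of its class. On the scale of normalised CPM per 1000 exon bases, the mean level over the 8 cultures was 10.6 for Hist1h4i, 4.26 for Hist1h3c, 3.11 for Hist1h4b, 2.96 for Hist2h2be and 2.75 for Hist1h2ak. The order therefore changed with length: Hist1h2be, first by counts, stood at 2.31 per 1000 bases because its exons span 4446 bases.

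**Figure D1:**
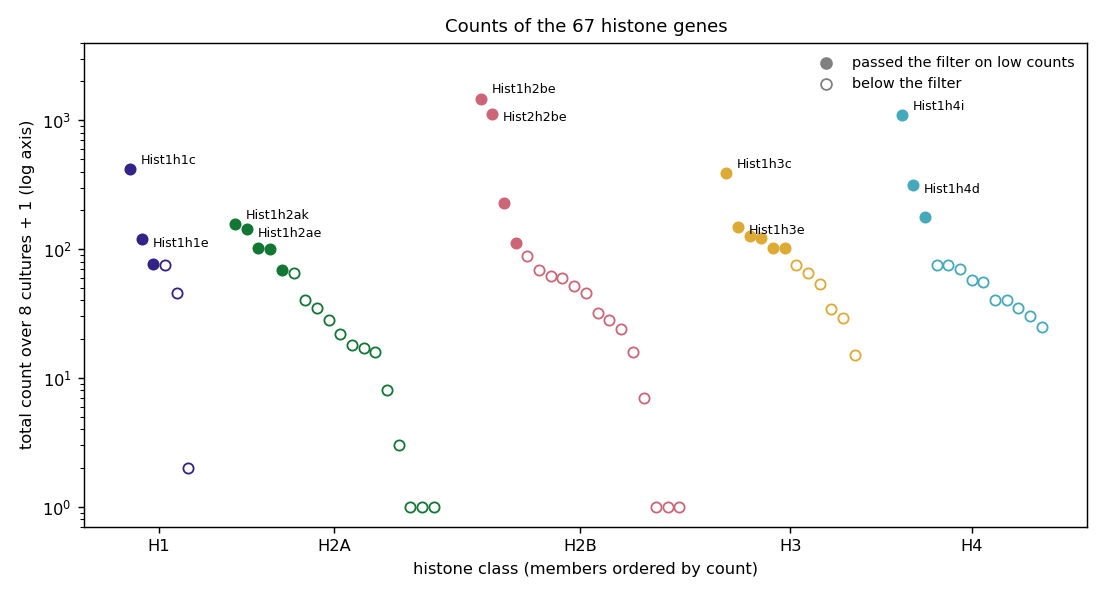
Total counts over the 8 cultures for each of the 67 histone genes, by class, on a logarithmic axis after adding 1. Filled points are the 21 genes with enough counts to be tested and open points the 46 that were not; Hist1h2be (1470 counts), Hist2h2be and Hist1h4i stand above the rest, and 6 genes are at 0.

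Tested variants and replication genes had higher median levels in the same libraries. The 9 replication-independent variants that could be tested had levels of 23.9 to 293 CPM per 1000 exon bases (median 119), with H2afz at 293, H3f3b at 189 and H3f3a at 119. The 48 tested genes of S-phase DNA replication had 7.27 to 184 (median 29.0). The 21 tested histone genes had a median of 1.46 and a maximum of 10.6 on the same scale, below the lowest of the 9 variants. Over all 67 histone genes the median was 0.602, and the other 9 variants in the table, with too few counts for the test, stood between 0 and 0.11. These are levels in the libraries, and the part that library selection has in them was not tested.

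Near-identical copies also bear on the counts. For 40 of the 67 genes, at least 50% of the 75-base stretches of the transcript occur in no other of the 67. Genes outside the 67 were not compared. Of the 40, 17 could be tested. The other 27 had a median total of 33 counts, against 69 for the 40, and 4 of them could be tested. Of the 9 genes with under 15% of such stretches, 0 could be tested, and their median total was 15. How reads that match several genes were counted is not given in the sources used here, so values of these copies are uncertain. Hist1h1e shares 25.7% of its exon bases with Hist1h2be on the same strand, and reads there cannot be assigned to 1 of them.

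The study's comparison asks how growth in osteoclast-conditioned medium changes gene expression of the leukaemia cells. None of the histone genes passed the test: 0 of the 21 with enough counts had an adjusted p under 0.05 in edgeR's quasi-likelihood test, where 30.5% of all 10729 tested genes did (15.7% higher and 14.8% lower in conditioned medium). With scaling by total counts alone that split was 12.9% higher and 18.8% lower. The unadjusted p was under 0.05 for 1 of 21, Hist1h2bc, against 40.0% of all genes. DESeq2 gave an adjusted p for 11 of the 21 and called 0 of these (26.1% of all genes with one). Its unadjusted p was under 0.05 for 0 of 21 (34.1% of all genes), and limma-voom called 0 (30.0%). The 2 groups of cultures did not overlap in normalised CPM for 1 of the 21, again Hist1h2bc, against 28.2% of all genes. The log2 fold change of conditioned over control medium was below 0 for 15 of the 21 and above 0 for 6, while 52.2% of all tested genes were below 0. Its median was −0.11, against −0.01 over all tested genes.

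The counts limit what these tests can show. The 21 tested histone genes had 68 to 1470 counts over all 8 libraries (median 141), against a median of 5396 for all tested genes. The 95% interval of the log2 fold change included 0 for 20 genes. It lay within a 1.5-fold change in either direction for 7 genes and within a 2-fold change for 20, the exception being Hist2h2ac. The spread between cultures of 1 medium was 1.37 times that of counting alone over the 21 genes (chi-square per degree of freedom, where 1 is counting noise). In bulk RNA, fewer cells in S phase and less histone RNA per cell cannot be told apart.

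**Figure D2:**
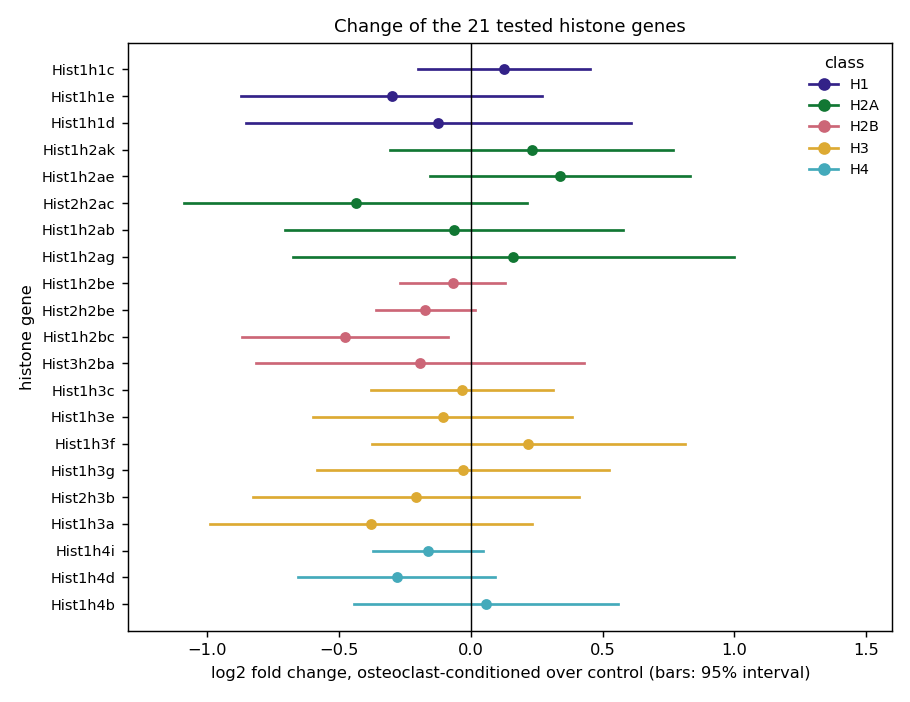
Log2 fold change of conditioned over control medium for the 21 tested histone genes, grouped by class, with 95% intervals from the edgeR fit. Points left of 0 are lower in conditioned medium; the interval of Hist1h2bc (−0.87 to −0.09) is the 1 of 21 that leaves out 0, and its adjusted p is 0.0577.

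Summed over all 67 genes, the normalised level was 62.8, 53.9, 61.3 and 63.7 CPM in the control cultures and 53.6, 53.2, 55.5 and 57.1 in conditioned medium. The means were 60.4 ± 4.49 and 54.9 ± 1.81 (SD, n = 4 each), a difference of 9.18%. The groups overlapped, because the second control culture lay among the conditioned ones and the other controls lay above all of them. The sums are given as descriptions, with no test, since these genes, though found by name alone, were taken up as a group with results of these data known. The groups overlapped in every class.

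**Figure D3:**
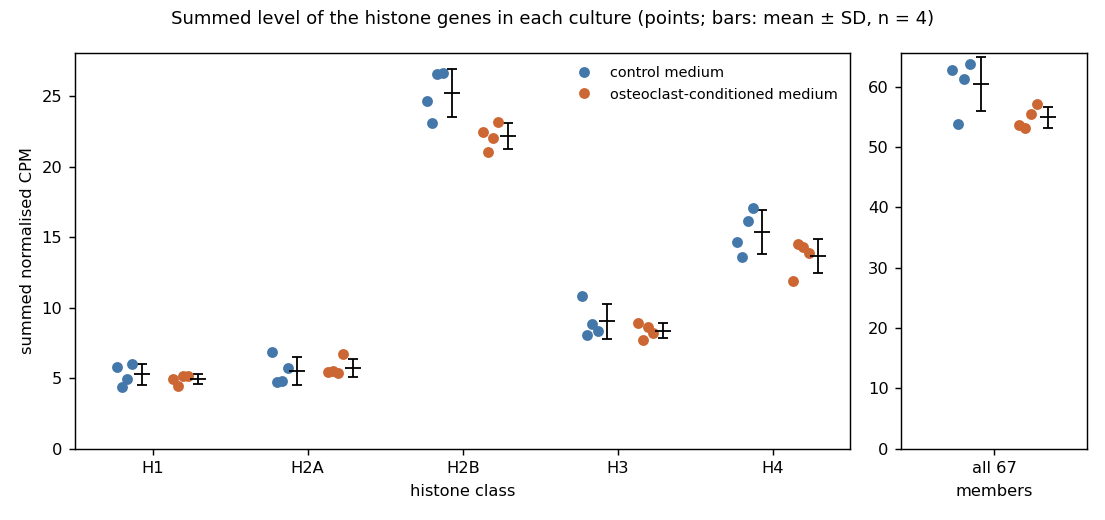
Summed normalised CPM of each histone class in each of the 4 control and 4 osteoclast-conditioned cultures, with the mean and SD of each group. H2B holds the most counts and its groups (23.1 to 26.6 in control, 21.0 to 23.2 in conditioned medium) meet at their edges; the groups of the other classes overlap more widely.

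Of the 3 tested linker histone H1 genes, 0 were called, against 30.5% of all tested genes. With so few genes this count shows little. The class sum was 5.27 ± 0.753 CPM in control and 4.93 ± 0.350 in conditioned medium (SD, n = 4 each), a log2 ratio of −0.10. That ratio ran from −0.18 to −0.03 with 1 library left out and was −0.37 without Hist1h1c. Hist1h1c, the leading linker gene, had 2.96, 1.98, 2.78 and 3.55 CPM in control and 3.15, 2.81, 3.01 and 3.15 in conditioned medium. All 4 conditioned cultures lay within the control range. Its log2 fold change was 0.13 (SE 0.16, edgeR adjusted p = 0.588). Hist1h1e, another somatic linker subtype, had 0.947, 0.922, 0.776 and 0.959 CPM in control and 0.915, 0.359, 0.698 and 0.933 in conditioned medium, where the second culture was lowest (log2 fold change −0.30, SE 0.28, edgeR adjusted p = 0.448). With 1 library left out the estimate for Hist1h1e ran from −0.44 to −0.09. Hist1h1d stood at −0.12. The 3 linker genes with too few counts were Hist1h1a with 74 counts in all, Hist1h1b with 45 and Hist1h1t.

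Of the 5 tested H2A genes, 0 were called (30.5% of all tested genes were). The class sum was 5.51 ± 1.01 CPM in control and 5.75 ± 0.637 in conditioned medium (SD, n = 4 each), a log2 ratio of 0.06. Its sign was not stable: with 1 library left out the ratio ran from −0.02 to 0.18, at or below 0 without control replicate 2 or 3 or conditioned replicate 4, and the median log2 fold change of H2A genes was 0.16 over the tested genes and −0.06 with no filter. Hist1h2ak, the most counted H2A gene, had 1.30, 0.922, 1.16 and 0.620 CPM in control against 1.37, 0.838, 0.859 and 1.57 in conditioned medium. The groups overlapped, and the highest values were those of 2 conditioned cultures (log2 fold change 0.23, SE 0.26, edgeR adjusted p = 0.541). Hist1h2ae had 0.947, 0.830, 0.841 and 0.846 CPM in control and 0.864, 1.08, 1.34 and 1.11 in conditioned medium. All conditioned cultures but the first lay above every control. The log2 fold change was 0.34 (SE 0.24, edgeR adjusted p = 0.307). Hist2h2ac, the H2A gene with the largest estimate, had 1.07, 0.553, 0.453 and 1.18 CPM in control and 0.661, 0.539, 0.698 and 0.467 in conditioned medium. The controls fell into 2 high and 2 low values, with the conditioned cultures near the low ones. Its log2 fold change was −0.44 (SE 0.32, 95% interval −1.09 to 0.21, edgeR adjusted p = 0.320). Hist1h2ag stood at 0.16 and Hist1h2ab at −0.06. Estimates with 1 library left out ran from 0.07 to 0.38 for Hist1h2ak, 0.22 to 0.45 for Hist1h2ae and −0.62 to −0.20 for Hist2h2ac.

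H2B was the class with the most counts and the one with the estimate nearest to the threshold. Still, 0 of its 4 tested genes were called (30.5% of all tested genes were). The sum was 24.6, 23.1, 26.5 and 26.6 CPM in control and 22.5, 21.0, 22.0 and 23.2 in conditioned medium. The means were 25.2 ± 1.69 and 22.2 ± 0.901 (SD, n = 4 each), 12.1% lower in conditioned medium, and the groups met at 1 control and 1 conditioned culture. All 4 tested genes had log2 fold changes below 0. Hist1h2bc had 2.01, 1.80, 2.07 and 1.58 CPM in control and 1.37, 1.14, 1.40 and 1.40 in conditioned medium, so that every control lay above every conditioned culture. Its means were 1.87 ± 0.224 and 1.33 ± 0.127 (SD, n = 4 each), and the log2 fold change was −0.48 (SE 0.19, 95% interval −0.87 to −0.09, edgeR adjusted p = 0.0577). The adjusted p came below 0.05 in 2 of the 20 alternatives in which the gene was tested: 0.0457 with scaling by total counts alone (31.6% of all genes called) and 0.0486 without the fourth control culture (26.4% called). Without other single libraries it ran up to 0.147, and with DESeq2 it was 0.171.

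The other tested H2B genes had estimates nearer to 0. Hist2h2be, in the Hist2 cluster, had 7.16, 8.21, 8.48 and 9.02 CPM in control and 7.17, 7.54, 7.19 and 7.29 in conditioned medium. The first control culture was the lowest of all 8, and the other controls lay above every conditioned culture (log2 fold change −0.17, SE 0.09, edgeR adjusted p = 0.161). Hist1h2be, the most counted histone gene, had 10.7, 8.58, 11.5 and 11.6 CPM in control and 10.1, 8.68, 9.77 and 11.4 in conditioned medium. The groups overlapped over most of their range, and the log2 fold change was −0.07 (SE 0.10, 95% interval −0.27 to 0.13, edgeR adjusted p = 0.631). Hist3h2ba, the tested gene of the Hist3 cluster, stood at −0.19 (adjusted p = 0.673). With 1 library left out the estimate ran from −0.17 to −0.01 for Hist1h2be and from −0.41 to −0.01 for Hist3h2ba.

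Hist1h2bc lies head to head with an H2A gene, whose upstream sequence is given above. That partner, Hist1h2ac, had 34 counts in all, too few for the test, and Hist1h2bc had 229. Per 1000 exon bases the levels were 1.38 CPM for Hist1h2bc and 0.0964 for Hist1h2ac. The model of Hist1h2ac runs 2010 bases past its stem-loop, and its level per length depends on that. Hist1h2ac had 1, 1, 3 and 5 counts in the control libraries and 8, 8, 4 and 4 in the conditioned ones, so its groups overlapped. With no filter on low counts, its log2 fold change was 1.21 (edgeR adjusted p = 0.112). The pair Hist2h2ac and Hist2h2be, whose starts are 239 bases apart, stood at 1.35 and 2.96 CPM per 1000 exon bases.

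Of the 6 tested H3 genes, 0 were called (30.5% of all tested genes were). The class sum was 9.03 ± 1.25 CPM in control and 8.37 ± 0.515 in conditioned medium (SD, n = 4 each), a log2 ratio of −0.11 that ran from −0.16 to −0.01 with 1 library left out. Hist1h3c, the leading H3 gene, had 3.14, 2.67, 3.17 and 1.97 CPM in control and 3.20, 2.27, 2.84 and 2.22 in conditioned medium. Both groups covered nearly the same range, and the log2 fold change was −0.03 (SE 0.17, edgeR adjusted p = 0.900). Hist1h3a, with the largest estimate of the class, had 0.770, 0.599, 0.841 and 1.02 CPM in control and 0.763, 0.598, 0.698 and 0.350 in conditioned medium. The groups overlapped, with the lowest value in the fourth conditioned culture and the highest in the fourth control (log2 fold change −0.38, SE 0.30, edgeR adjusted p = 0.359). With 1 library left out the estimate for Hist1h3a ran from −0.52 to −0.20. The others were Hist1h3f at 0.22 (0.04 to 0.60 with 1 library left out, highest without control replicate 1), Hist2h3b at −0.21, Hist1h3e at −0.11 and Hist1h3g at −0.03.

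Of the 3 tested H4 genes, 0 were called (30.5% of all tested genes were). The class sum was 15.4 ± 1.55 CPM in control and 13.7 ± 1.21 in conditioned medium (SD, n = 4 each), a log2 ratio of −0.17. Hist1h4i had 7.46, 7.47, 9.06 and 8.46 CPM in control and 5.90, 7.96, 7.24 and 7.87 in conditioned medium. The 2 highest cultures were controls and the lowest was a conditioned one, with the rest mixed (log2 fold change −0.16, SE 0.10, 95% interval −0.37 to 0.05, edgeR adjusted p = 0.242). Hist1h4d had 2.43, 1.84, 2.26 and 3.05 CPM in control and 1.98, 1.68, 2.41 and 1.69 in conditioned medium, again with overlap (log2 fold change −0.28, SE 0.18, edgeR adjusted p = 0.263). With 1 library left out the estimate ran from −0.21 to −0.07 for Hist1h4i and from −0.41 to −0.14 for Hist1h4d. Hist1h4b, whose stem-loop has the form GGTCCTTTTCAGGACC, stood at 0.06 (adjusted p = 0.882).

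The 46 genes below the filter on low counts held 19.3% of the histone counts, with 0 to 87 counts each over all 8 libraries (median 32). Summed, they stood at 11.7 to 13.0 CPM in control and 9.61 to 10.7 in conditioned medium. The means were 12.0 ± 0.614 and 10.1 ± 0.522 (SD, n = 4 each), a log2 ratio of −0.25, and the 2 groups did not overlap. This sum was formed after the values were seen and has no test; the tested 21 stood at 48.4 ± 4.29 and 44.7 ± 1.66, with overlap. With no filter, edgeR called 0 of the 61 detected genes (21.9% of all 15159). The unadjusted p was under 0.05 for 4 of 61 against 30.5% of all, namely Hist1h2ac, Hist1h2bc, Hist1h2bn and Hist2h3c1. Of these, Hist1h2bn stood at a log2 fold change of −1.46 (edgeR adjusted p = 0.0853) and Hist2h3c1 at −1.28 (edgeR adjusted p = 0.133). In that fit 44 genes were below 0 and 17 above, with a median of −0.19, where 52.9% of all genes were below 0.

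The genes that make, cut and load histone messages were described from fixed lists. Of 35 tested genes of histone pre-mRNA processing and turnover, 2 were called higher and 7 lower in conditioned medium by edgeR (median log2 fold change −0.03), where 15.7% of all tested genes were called higher and 14.8% lower. Taking both directions, calls in this list were not more frequent than the 30.5% over all genes. Slbp, the stem-loop binding protein gene, had 230, 239, 245 and 226 CPM in control and 226, 230, 221 and 216 in conditioned medium, with an overlap at 226 to 230, and missed the threshold (log2 fold change −0.07, adjusted p = 0.0572). It passed in 5 of 21 alternatives, with an adjusted p of 0.0101 to 0.205 over all of them. Npat, which activates histone gene transcription at S phase, had 95.1 ± 2.15 and 93.5 ± 2.95 CPM (SD, n = 4 each; log2 fold change −0.02, edgeR adjusted p = 0.646). Srrt, a cofactor of the cap-binding complex, fell from 386 ± 31.5 to 321 ± 18.1 CPM (SD, n = 4 each; log2 fold change −0.26, edgeR adjusted p = 0.0229), a call lost without any one of 5 libraries (control replicates 1, 3 and 4, conditioned replicates 1 and 2; adjusted p up to 0.0742). Pou2f1, which binds the octamer, rose from 25.3 ± 4.38 to 30.6 ± 0.937 CPM (SD, n = 4 each; log2 fold change 0.28, edgeR adjusted p = 0.0406). That call was lost in 10 of 21 alternatives, with an adjusted p of up to 0.0986, among them leaving out control replicate 2 or 4 or any 1 of the conditioned cultures. The other genes called were Snrpf (higher) and Ccne1, Ccne2, Cdk2, Cstf1, Snrpe and Snrpg (lower). Ccne1, Ccne2 and Cdk2 encode the cyclin E kinase that acts on Npat, and Snrpe, Snrpf and Snrpg encode proteins of the small nuclear ribonucleoprotein ring.

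Of 48 tested genes of S-phase DNA replication, 23 were called lower and 1, the polymerase gene Pole, higher, with a median log2 fold change of −0.08. Over all tested genes 14.8% were called lower and 15.7% higher (18.8% and 12.9% with scaling by total counts alone). The 3 listed genes not tested were Cdt1, Gins2 and Tk1, at 0. Rpa3, a subunit of the protein that coats single-stranded DNA, fell from 25.2 ± 1.05 to 20.2 ± 1.81 CPM (SD, n = 4 each; log2 fold change −0.32, edgeR adjusted p = 0.00019). Orc1, of the origin recognition complex, fell by 0.28 on the log2 scale and Ccne1, the cyclin E1 gene, by 0.26. The groups did not overlap for 24 of the 48 genes, these 3 among them, against 28.2% of all tested genes. Mcm2, Slbp, Ccne1, Ccne2 and Cdk2 stand in 2 of the lists.

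Among the 9 tested replication-independent variants, 2 were called higher and 2 lower (median log2 fold change −0.01), against 30.5% of all tested genes called in either direction. Cenpa, the H3 variant of centromeres, had 162, 167, 155 and 153 CPM in control and 120, 120, 120 and 123 in conditioned medium, with every control above every conditioned culture. It fell by 0.40 on the log2 scale (SE 0.03, edgeR adjusted p = 4.07e-11). H2afx, the variant phosphorylated at DNA breaks, fell by 0.16 (edgeR adjusted p = 0.0219). Its call was lost with an offset for GC content and length, where it stood at −0.13 (adjusted p = 0.0995), and without control replicate 1 or conditioned replicate 1, 2 or 4 (up to 0.0698). H1f0, a linker variant known from resting and differentiating cells, rose by 0.14 (edgeR adjusted p = 0.000494), as did H2afv by 0.11 (adjusted p = 0.0157). H2afz, a variant close in sequence to H2afv, stood at −0.03 (adjusted p = 0.321).

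Of 32 tested histone chaperones and chromatin assembly genes, 3 were called higher and 7 lower (median log2 fold change −0.01), a share close to the 30.5% of all tested genes called. Hjurp, the chaperone of Cenpa, fell by 0.20 on the log2 scale (SE 0.03, edgeR adjusted p = 8.51e-07). Nasp, which holds a store of soluble H3 and H4, fell by 0.20 (SE 0.03, edgeR adjusted p = 1.58e-05). Ubn2, of the complex that loads variant H3.3, rose by 0.24 (edgeR adjusted p = 3.56e-05), and Ubn1 and Supt6 were the other genes called higher. Asf1b, Hat1, Nap1l4, Rbbp7 and Supt16 were also called lower.

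**Figure D4:**
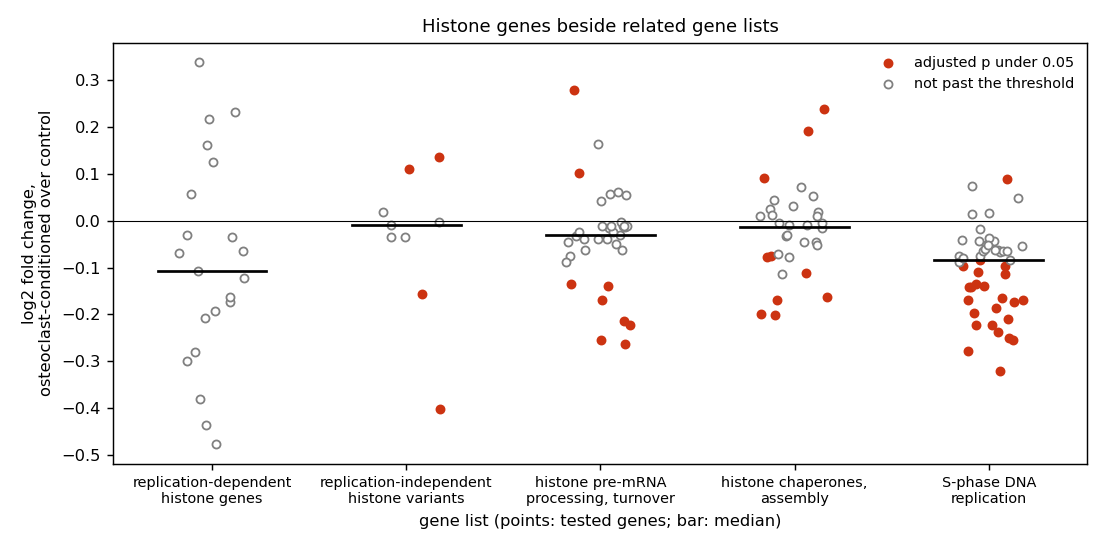
Log2 fold change of conditioned over control medium for every tested gene of the histone set and of the 4 other lists. Filled points passed the edgeR test and bars mark medians; none of the 21 histone genes is filled, while 23 of 48 S-phase genes are filled on the lower side.

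The labelled cell type was checked with marker lists. Of 12 B-lineage leukaemia markers, 11 could be tested and 6 were called higher and 2 lower (15.7% and 14.8% of all tested genes); their summed level was 4777 to 4827 CPM in control and 5027 to 5059 in conditioned medium, and Rag1 was at 0 in all libraries. The 12 osteoclast markers summed to 128 to 135 CPM in control and 139 to 145 in conditioned medium. Nfatc1, which lymphocytes also express, made most of that sum. Of the 3 that could be tested, Nfatc1 was called higher (log2 fold change 0.15, edgeR adjusted p = 0.000806), Itgb3 lower (−0.25, adjusted p = 0.0185) and Acp5 was not called, and Ocstamp and Dcstamp were at 0. The 10 macrophage markers summed to 20.4 to 21.9 and 21.1 to 25.1 CPM, with Marco, C1qa, C1qb, C1qc, Itgam and Cd14 at 0. Of their 3 tested members Lyz2 was called higher (log2 fold change 0.40, edgeR adjusted p = 0.0119), and Mrc1 and Cd68 were not called. The part of these markers in the histone values was not tested.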

How the data were processed

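RNA of 8 PER-M60 cultures was extracted with a column kit and made into libraries with the SureSelect HS2 kit, per the labels. The authors deposited unnormalised whole-number counts, 1 row for each Ensembl gene identifier. The submitters' processing notes name STAR 2.7.5a, featureCounts 2.0.1 and build mm10; annotation, use of strand, treatment of reads matching several genes and library selection are not given in the sources used here. Of 21859 identifiers, 21817 matched GENCODE M21 (GRCm38), which supplied symbols, exons and transcripts. All 8 count columns were mapped, and 0 rows named no gene.

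Genes passing filterByExpr (10729) were scaled by TMM and tested with edgeR 4.0.16 (glmQLFit, robust, and glmQLFTest, medium as the only term, R 4.3.3). P-values were Benjamini-Hochberg adjusted over all 10729 genes, with a threshold of 0.05. Normalised CPM are TMM-scaled, and levels per 1000 bases divide them by exon length. The fit was tested on simulated counts. Alternatives changed scaling, filter, tool (DESeq2 1.42.0, limma 3.58.1), offsets, depth, threshold, the replicate term and single libraries. Stem-loops were searched after the stop codon of each transcript, and motifs in RefSeq windows.

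The genes, lists and tests were chosen with earlier results of these data known. Named by rule were every called histone gene, the most counted and most changed member of each class, up to 3 called genes per pathway list, Slbp and Npat, and untested members of a class with 5 or fewer; the other tested histone genes and other names were added after their values were seen.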

Additional observations from a re-analysis of the deposited data

Results flagged for a closer look

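In 82 groups of 4 cultures (histone genes, class sums and named pathway genes), Dixon's test set 5 values apart from the other cultures of their medium, where chance gives about 4.1. The summed H2A level of the fourth conditioned culture was 6.71 CPM, against 5.37 to 5.51 in the others. The sum of the histone genes below the filter was 13.0 CPM in the first control culture, against 11.7 to 11.8. Hist1h2ae stood at 0.947 CPM in the first control culture, against 0.830 to 0.846. Hist1h2bc stood at 1.14 CPM in the second conditioned culture, against 1.37 to 1.40. Without that culture its log2 fold change was −0.41 (edgeR adjusted p = 0.147). Srrt stood at 338 CPM in the second control culture, against 399 to 403.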

How the results depend on the processing

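No histone gene was called higher under any of the 21 alternatives. The number called lower, and the number of H2B genes called, was 1 (Hist1h2bc) with total counts only, and ran from 0 to 1 over fits leaving out 1 library, reaching 1 without the fourth control culture. Of all genes, 2147 were called at an adjusted p under 0.01, and 2635 to 3578 with 1 library left out. The median log2 fold change of H1 genes was −0.39 with no filter, 0.13 with a mean of at least 50 counts and −0.34 to 0.10 with 1 library left out. That of H2B genes was −0.34 with no filter and −0.29 to −0.12 with 1 library left out. With no filter, H2A genes had a median of −0.06, against 0.16 with the filter, and H3 genes −0.16, against −0.07. With 1 library left out, the ranges for H2A, H3 and H4 were 0.07 to 0.38, −0.14 to 0.02 and −0.29 to −0.14, and −0.20 to −0.05 for all 21. The summed log2 ratio of H1 was −0.37 without Hist1h1c. With 1 library left out, summed ratios were −0.19 to −0.11 for all genes, −0.18 to −0.03 for H1, −0.02 to 0.18 for H2A, −0.23 to −0.16 for H2B, −0.16 to −0.01 for H3, −0.23 to −0.11 for H4 and −0.28 to −0.21 for genes below the filter, a sum chosen after seeing the data.

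Of 411 values of single histone genes under alternatives, 383 kept their direction and side of the threshold, 26 changed sign and 2 passed the threshold; 12 of the 21 genes never changed sign and 9 did. Sign changes came with the GC and length offset for Hist1h3c (0.0266) and Hist1h3g (0.0202), with that offset and the replicate block for Hist1h2ab (0.00441), Hist1h3c (0.0089) and Hist1h3g (0.0345), and with thinning to the smallest total for Hist1h2ab (0.0574). With 1 library left out, the ranges were −0.0371 to 0.27 for Hist1h1c, −0.40 to 0.10 for Hist1h1d, −0.21 to 0.0946 for Hist1h2ab, −0.10 to 0.49 for Hist1h2ag, −0.16 to 0.0417 for Hist1h3c, −0.23 to 0.0019 for Hist1h3e, −0.18 to 0.17 for Hist1h3g, −0.39 to 0.0332 for Hist2h3b and −0.12 to 0.27 for Hist1h4b. The cause of these changes was not tested. Slbp passed the threshold with total counts only (adjusted p = 0.0101), upper-quartile scaling (0.0273), thinning (0.0439) and without the fourth control culture (0.0396), and ran up to 0.205.

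Replicate numbers are shared between media. Cultures with the same number had correlations of −0.05 to 0.14 (mean 0.04). Those with different numbers had a mean of −0.01. Each gene was centred within its medium, so that value nearly follows from the first mean and is no separate comparison. The labels do not say how same-numbered cultures were handled, and the numbers were treated as unpaired. With the replicate block, 3446 genes were called in the whole table and 0 histone genes, and Slbp had an adjusted p of 0.0425.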
